A study of Solanum lycopersicum with 14 samples.

Results

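The genes described here encode the chlorophyll a/b-binding proteins of the light-harvesting antenna and 4 nuclear-encoded subunits of the photosystems. Members were taken by identifier from a fixed list of 34 genes, chosen with earlier results of these data known. The list held 30 genes for chlorophyll a/b-binding proteins and 4 for PsbO, PsbP, PsbQ and PsaD. All 34 were found among the 34725 genes of each table. RNA sequencing was done on tomato (Solanum lycopersicum) fruit pericarp, the fleshy fruit wall, from greenhouse plants. The mutant n3122, labelled yellow-fruited and carried in cultivar background M82, was sampled at 35, 47, 54 and 60 DPA, the fruit age in days post anthesis, and wild-type, red-fruited M82 at 35, 47 and 54 DPA. There were 14 libraries, 2 for each of 7 groups, and no treatment or mutated gene is named in the labels. Nothing in the labels tells if both libraries of a group were made from different plants, and the p-values may therefore measure technical spread only. The files give 1 FPKM value (sequenced fragments per transcript length, scaled to library size) per gene and group for both libraries together. No level below therefore carries an SD, and the sequencing depth is unknown.

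Light-harvesting proteins hold chlorophyll a and b in the thylakoid membrane and pass light energy to the reaction centres. The LHCII trimers and the minor antenna protein CP24 serve photosystem II, and the LHCI proteins serve photosystem I. PsbO, PsbP and PsbQ form the lumenal shield of the oxygen-evolving manganese cluster of photosystem II, and PsaD is the stromal docking subunit for ferredoxin on photosystem I. Green tomato fruit has photosynthetic chloroplasts, and during ripening these turn into chromoplasts while chlorophyll and thylakoids are lost.

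The tables hold identifiers and no gene names, and these identifiers are absent from the reference gene table (RefSeq, assembly SLM_r2.1). Names are therefore used only where that table places a gene of the same name at the same relative place of the same chromosome. That was so for 29 of the 34 members, 4 had no name to check, and for PsbQ (Solyc02g090030) the reference gene of that name lay elsewhere on chromosome 2, so its name rests on the list alone. Several of the 29 shared the same reference gene, among them Solyc06g069000 and Solyc06g069730, both placed at CAB12. Except for CAB13, such members are given by identifier. The list holds a run of 8 neighbouring identifiers on chromosome 2 where the reference has its CAB1 genes, and a run of 4 on chromosome 3 where it has CAB3 genes (drawn as clusters in the plots). Both runs encode LHCII proteins of the first type. Near-identical neighbours can share reads, so single values within these runs and within pairs are uncertain and their sums are given as well.

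**Figure D1:**
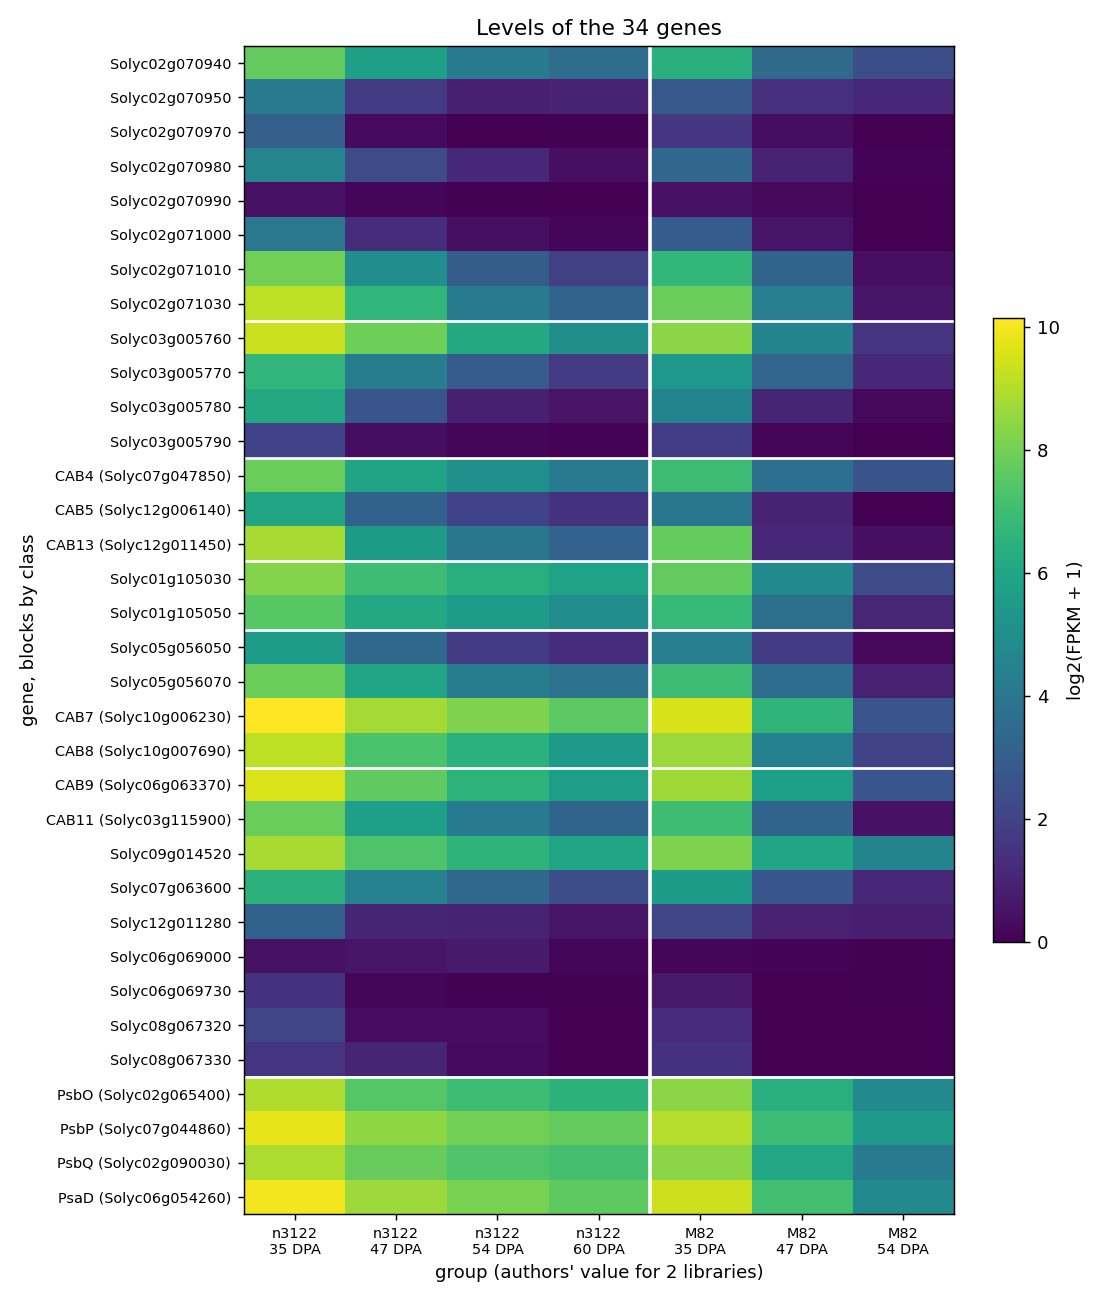
Heat map of log2(FPKM + 1) for the 34 genes (rows, in blocks by class) in the 7 groups (columns, n3122 left and M82 right, ages rising within each). Colour runs from dark (0) to yellow (highest), and the columns darken with age in both genotypes, most in M82 at 54 DPA.

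The summed level of the 30 chlorophyll a/b-binding genes was higher in n3122 than in M82 of equal age at each of the 3 shared ages. The sum was 6654 FPKM in n3122 against 3672 FPKM in M82 at 35 DPA, a ratio of 1.81. At 47 DPA it was 1861 FPKM in n3122 against 391 FPKM in M82, a ratio of 4.76, and at 54 DPA 918 FPKM in n3122 against 60.9 FPKM in M82, a ratio of 15.1. In n3122 at 60 DPA the sum stood at 548 FPKM, against 375 FPKM in the M82 fruit of 47 DPA with which the authors compared it, a ratio of 1.46. These sums are descriptions with no test of their own. In bulk pericarp, fewer cells with chloroplasts and less RNA per cell cannot be told apart. The 4 photosystem subunit genes together had 2833 FPKM in n3122 against 1832 FPKM in M82 at 35 DPA (ratio 1.55), 1133 against 405 FPKM at 47 DPA (2.79), and 817 against 116 FPKM at 54 DPA (7.05). Their ratio was smaller than that of the antenna sum at each shared age. In n3122 at 60 DPA they summed to 649 FPKM, against 389 FPKM in M82 at 47 DPA, a ratio of 1.67 and larger than that of the antenna sum.

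**Figure D2:**
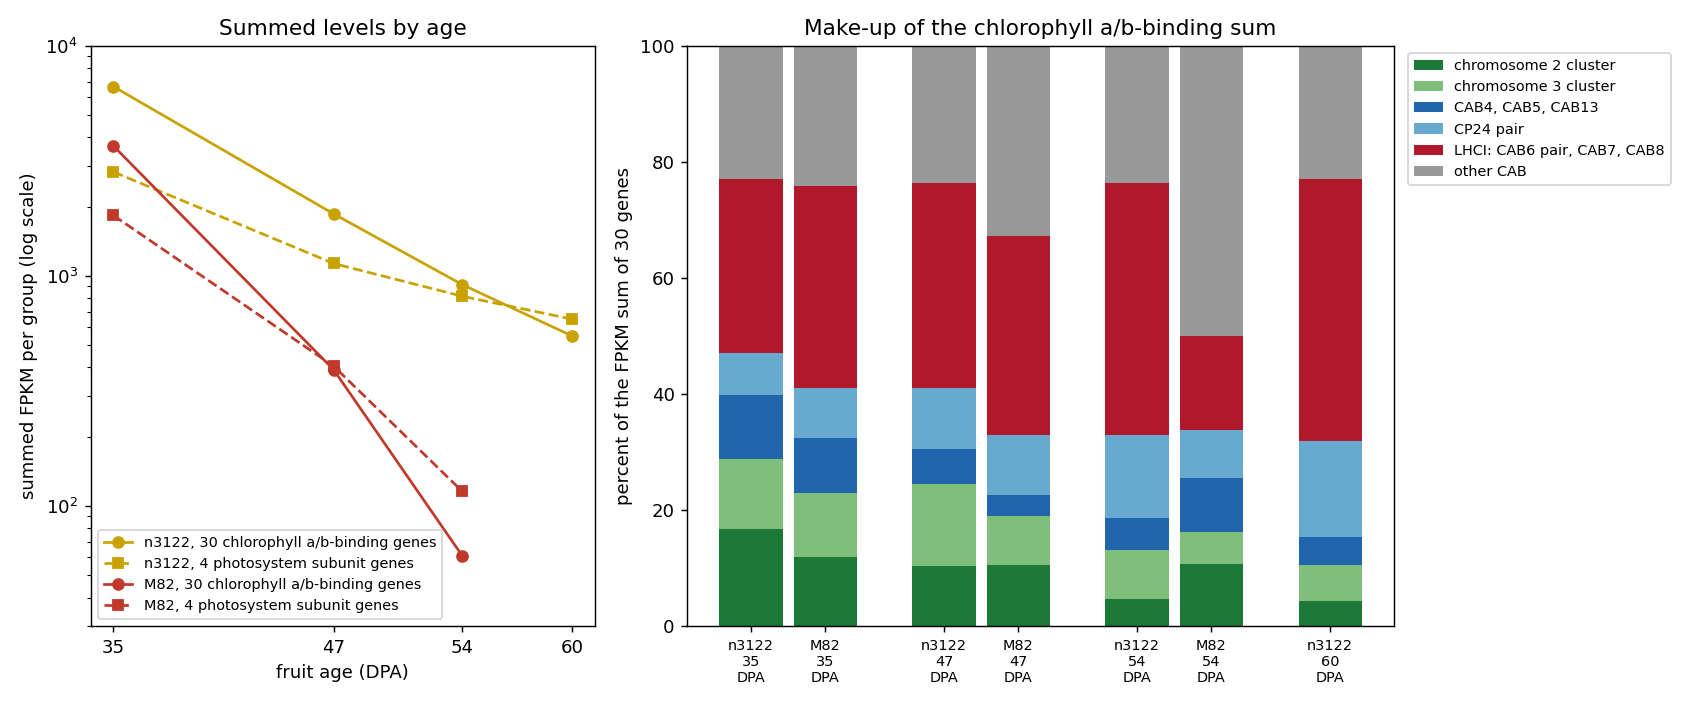
Left, summed FPKM per group (log axis) against fruit age for the 30 chlorophyll a/b-binding genes (circles, solid lines) and the 4 photosystem subunit genes (squares, dashed lines), n3122 in yellow and M82 in red. Right, the share of each class in the chlorophyll a/b-binding sum per group in percent, where the class of CAB6, CAB7 and CAB8 takes 45.2% in n3122 at 60 DPA and 16.1% in M82 at 54 DPA.

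A member was called where the q-value in the authors' deposited tables was at or under 0.05, adjusted over all genes they tested. Fold changes are log2((n3122 + 1) / (M82 + 1)) of the FPKM values, so a positive value means higher in n3122, and those of low genes are understated. At 35 DPA, 32 members were tested, 20 of them (62.5%) were higher in n3122 and none lower, while 1.91% of all 18541 tested genes were called higher. Of the 20 members, 7 lay in the chromosome 2 run and 3 in the chromosome 3 run. Neighbours there can share reads, so these calls may not be separate measurements. At 47 DPA, 27 members were tested, 24 (88.9%) were higher and none lower, against 13.7% of all 18751 tested genes called higher. At 54 DPA, 25 members were tested, 21 (84.0%) were higher and none lower, against 18.1% of all 18796 tested genes called higher. Over all tested genes, 1.33%, 9.81% and 11.5% were called lower at 35, 47 and 54 DPA. No member was lower at an unadjusted p-value under 0.05 either, a mark that 4.41%, 14.9% and 16.1% of all tested genes passed in that direction, and no other test could be run on the deposited values. With a minimum log2 fold change of 1 added, 13 members were higher at 35 DPA, against 0.841% of all tested genes. The median log2 fold change over all 34 members was 0.88 at 35 DPA, 1.62 at 47 DPA and 2.11 at 54 DPA. Over the tested members only it was 0.91, 1.79 and 2.58, beside -0.01, 0.01 and -0.02 over all tested genes. Genes listed at 0 in a group enter these medians through the pseudocount. With a pseudocount of 0.1 FPKM the median over all 34 members at 54 DPA was 2.75. In that setting 10 fold changes of called members, taken before the log2 step, also became larger by over 1.5 times. The widest shifts among these were at 54 DPA. There the log2 fold change of CAB13 was 5.11 in place of 3.57, that of CAB11 5.03 in place of 3.66 and that of Solyc02g071030 4.80 in place of 3.58. Of the 25 members tested at all 3 ages, 14 were called higher at each, against 0.913% of the 17736 genes tested at all 3.

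**Figure D3:**
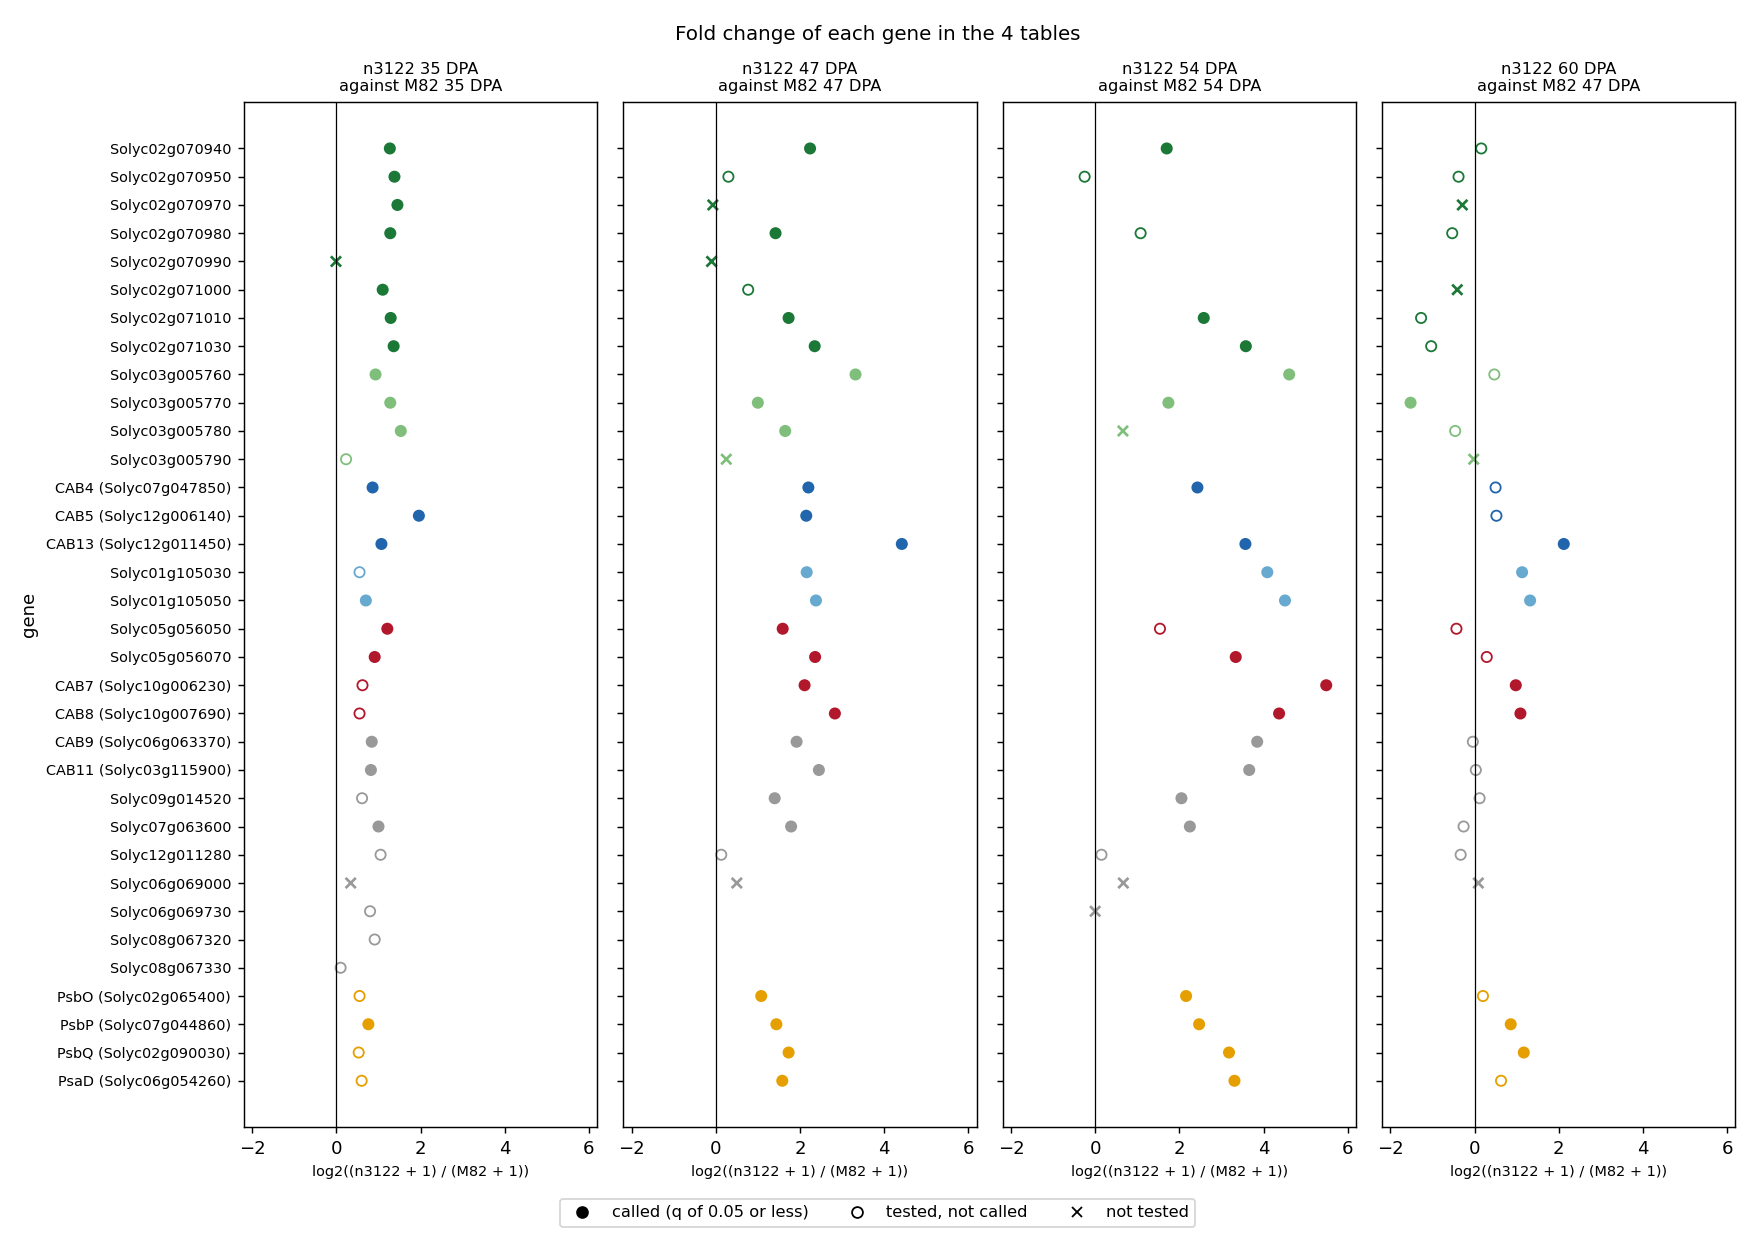
Log2 fold change of each of the 34 genes (rows) in the 4 tables (panels), with a pseudocount of 1 FPKM, coloured by class. Filled circles were called at a q-value of 0.05 or less, open circles were tested and not called, crosses were not tested, and a gene listed at 0 in either group has no point. At 47 and 54 DPA all filled circles lie right of 0, and in the table of n3122 at 60 DPA 1 of 8 lies left of it.

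The chromosome 2 run of LHCII genes was higher in n3122 as a block at 35 DPA. All 7 members tested at 35 DPA were called higher, with log2 fold changes between 1.1 and 1.45, and the run summed to 1110.1 FPKM in n3122 against 439 FPKM in M82. Solyc02g071030, its most abundant member, was listed at 583, 101, 17.2 and 8.40 FPKM in n3122 in order of age, against 226, 19.0 and 0.522 FPKM in M82. It was higher at 35, 47 and 54 DPA with log2 fold changes of 1.36, 2.35 and 3.58 (authors' q-values 0.00325, 0.000521 and 0.0219). Both Solyc02g070940 and Solyc02g071010 were called higher at the same 3 ages as well.

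The other 5 members of the run were scarcer. Solyc02g070950 was listed at 17.3, 2.27, 0.860 and 0.986 FPKM in n3122 in order of age, against 6.04, 1.65 and 1.22 FPKM in M82. Solyc02g070980 was listed at 23.5, 4.19, 1.24 and 0.323 FPKM in n3122 in order of age, against 9.13, 0.944 and 0.0586 FPKM in M82. Both were highest in n3122 at 35 DPA, and Solyc02g070980 was still called higher at 47 DPA (log2 fold change 1.42, authors' q-value 0.0142). Solyc02g070950 had the one negative fold change among the tested members at 54 DPA, -0.25, and was not called there (authors' q-value 0.613). Solyc02g071000 was listed at 15.4, 1.51, 0.326 and 0.0922 FPKM in n3122 in order of age, against 6.64, 0.470 and 0 FPKM in M82. Solyc02g070970 was listed at 7.38, 0.233, 0 and 0.0461 FPKM in n3122 in order of age, against 2.06, 0.294 and 0 FPKM in M82. Past 35 DPA these last genes were near or under 1 FPKM in most groups. Solyc02g070990 was listed at 0.422, 0.0985, 0.0532 and 0 FPKM in n3122 in order of age, against 0.427, 0.175 and 0 FPKM in M82, and it was never tested.

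In the chromosome 3 run, a single gene held most of the RNA at every age. Solyc03g005760 was listed at 636, 239, 69.1 and 30.9 FPKM in n3122 in order of age, against 334, 23.0 and 1.87 FPKM in M82. It was called higher at 35, 47 and 54 DPA, and its fold change was larger at each later age, 0.93, 3.32 and 4.61 (authors' q-values 0.00325, 0.000521 and 0.000377); whether ages differ was not tested. Solyc03g005770 was listed at 101, 18.6, 6.61 and 2.29 FPKM in n3122 in order of age, against 41.3, 8.80 and 1.28 FPKM in M82. It was called higher at the 3 shared ages, with 1.28, 1.0 and 1.74. Solyc03g005780 was listed at 68.8, 5.45, 0.852 and 0.457 FPKM in n3122 in order of age, against 23.2, 1.05 and 0.174 FPKM in M82, and was called higher at 35 and 47 DPA and not tested at 54 DPA. Solyc03g005790 was listed at 3.15, 0.310, 0.0880 and 0.0782 FPKM in n3122 in order of age, against 2.55, 0.0980 and 0 FPKM in M82. It was tested at 35 DPA alone and not called.

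The LHCII genes outside the runs included the widest gap at 47 DPA. CAB13 (Solyc12g011450), for LHCII of the third type, was listed at 447, 45.7, 14.9 and 8.23 FPKM in n3122 in order of age, against 212, 1.17 and 0.334 FPKM in M82. At 47 DPA it stood at 10.2% of its 35 DPA level in n3122, against 0.555% in M82. The M82 share was the lowest among the 23 members with at least 10 FPKM in M82 at 35 DPA. Its log2 fold changes at the shared ages were 1.07, 4.42 and 3.57 (authors' q-values 0.00325, 0.000521 and 0.0214). CAB4 (Solyc07g047850), for LHCII of the second type, was listed at 227, 59.1, 32.7 and 16.9 FPKM in n3122 in order of age, against 124, 12.1 and 5.26 FPKM in M82, and was called higher at the 3 ages with 0.86, 2.20 and 2.43. CAB5 (Solyc12g006140), of that same type, was listed at 60.9, 7.90, 3.12 and 1.81 FPKM in n3122 in order of age, against 14.9, 1.0 and 0 FPKM in M82. CAB5 had the largest fold change of any member at 35 DPA, 1.96 (authors' q-value 0.00325), and 2.15 at 47 DPA. At 54 DPA the authors called it higher (q-value 0.000377) while listing it at 0 in M82, so no fold is given there, since a value of 0 in such a file may come from a failed estimate.

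CP24 is encoded by a pair of neighbouring genes on chromosome 1, which had similar fold changes. Solyc01g105030 was listed at 304, 126, 83.1 and 58.6 FPKM in n3122 in order of age, against 207, 27.4 and 3.96 FPKM in M82. Solyc01g105050, the second gene of the pair, had the lower value in each of the 7 groups, 179.6, 69.1, 48.0 and 31.4 FPKM in n3122 in order of age, against 110.1, 12.5 and 1.16 FPKM in M82. At 35 DPA only the second was called (log2 fold changes 0.55 and 0.70, authors' q-values 0.108 and 0.0142), a difference between the pair that was not tested. At 54 DPA the fold changes were 4.09 and 4.51, both called.

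The LHCI genes were abundant in green fruit of both genotypes and were far apart between them at 54 DPA. CAB7 (Solyc10g006230), for LHCI of the second type, had the highest level of the 30 antenna genes at 35 DPA and was listed at 1130.5, 433, 290.0 and 189 FPKM in n3122 in order of age, against 735, 99.7 and 5.47 FPKM in M82. At 35 DPA it was not called (log2 fold change 0.62, authors' q-value 0.137), and at 47 and 54 DPA it was higher with 2.11 and 5.49. Its value at 54 DPA was the largest fold change of that age among members above 0 in both groups. By rank among all 34725 genes CAB7 stood at place 419 in n3122 at 54 DPA, against place 13456 in M82. CAB8 (Solyc10g007690), for LHCI of the third type, was listed at 577, 154, 87.8 and 43.7 FPKM in n3122 in order of age, against 394, 20.9 and 3.29 FPKM in M82. It likewise was not called at 35 DPA (0.55, authors' q-value 0.164) and was higher at 47 and 54 DPA (2.83 and 4.37). Of the pair at the place of CAB6A, for LHCI of the first type, Solyc05g056070 was listed at 234, 60.9, 18.1 and 13.1 FPKM in n3122 in order of age, against 125, 11.1 and 0.886 FPKM in M82, and was called higher at 35, 47 and 54 DPA. Solyc05g056050 was listed at 46.4, 9.45, 2.39 and 1.5 FPKM in n3122 in order of age, against 19.5, 2.46 and 0.168 FPKM in M82. It was called higher at 35 and 47 DPA but not at 54 DPA (log2 fold change 1.54, authors' q-value 0.0832).

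Of the antenna genes with no class given here, 4 were well expressed. CAB9 (Solyc06g063370) was listed at 749, 202, 92.4 and 48.9 FPKM in n3122 in order of age, against 419, 52.4 and 5.47 FPKM in M82. CAB11 (Solyc03g115900) was listed at 225, 52.4, 16.9 and 8.59 FPKM in n3122 in order of age, against 127, 8.76 and 0.422 FPKM in M82. Both were called higher at each shared age, with 3.85 and 3.66 at 54 DPA. Solyc07g063600 was listed at 90.8, 21.4, 9.43 and 4.22 FPKM in n3122 in order of age, against 44.8, 5.47 and 1.19 FPKM in M82, and was called higher at each shared age as well. Solyc09g014520 was listed at 447, 162, 96.5 and 63.2 FPKM in n3122 in order of age, against 293, 60.7 and 22.5 FPKM in M82. At 54 DPA it made up 10.5% of the chlorophyll a/b-binding sum in n3122, against 36.9% in M82, where it had the highest level of the antenna genes. It was not called at 35 DPA (log2 fold change 0.61, authors' q-value 0.0781) and was higher at 47 and 54 DPA with 1.4 and 2.05.

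The remaining 5 antenna members were close to the floor of the measurement in most groups, and none was called in any table. Solyc12g011280 was listed at 7.93, 1.10, 1.0 and 0.492 FPKM in n3122 in order of age, against 3.30, 0.911 and 0.797 FPKM in M82. Solyc06g069730 was listed at 1.80, 0.147, 0.0405 and 0.0350 FPKM in n3122 in order of age, against 0.608, 0 and 0.0402 FPKM in M82. Solyc06g069000 was listed at 0.388, 0.509, 0.640 and 0.133 FPKM in n3122 in order of age, against 0.0983, 0.0669 and 0.0331 FPKM in M82, and was never tested. On chromosome 8, Solyc08g067320 was listed at 3.33, 0.254, 0.279 and 0 FPKM in n3122 in order of age, against 1.31, 0 and 0 FPKM in M82. Its neighbour Solyc08g067330 was listed at 1.89, 1.07, 0.238 and 0 FPKM in n3122 in order of age, against 1.70, 0 and 0 FPKM in M82. All 5 stayed under 10 FPKM in each group, so their fold changes carry little information.

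The photosystem subunit genes kept more of their 35 DPA level than most members in both genotypes, between 26.3% and 34.3% in n3122 at 54 DPA and between 4.12% and 8.5% in M82. The medians over the 23 abundant members were 10.9% in n3122 and 1.05% in M82. PsbO (Solyc02g065400), which stabilises the manganese cluster, was listed at 486, 177, 128 and 91.8 FPKM in n3122 in order of age, against 331, 83.0 and 27.9 FPKM in M82. PsbP (Solyc07g044860), which helps retain calcium and chloride there, was listed at 877, 339, 249 and 217 FPKM in n3122 in order of age, against 517, 124 and 44.0 FPKM in M82. Only PsbP was called at 35 DPA (log2 fold change 0.76, authors' q-value 0.0363), where PsbO had 0.55 (q-value 0.171). PsbQ (Solyc02g090030), the third extrinsic protein, was listed at 475, 219, 163 and 142 FPKM in n3122 in order of age, against 329, 65.2 and 17.1 FPKM in M82. PsaD (Solyc06g054260) was listed at 995, 398, 277 and 198 FPKM in n3122 in order of age, against 655, 133 and 27.0 FPKM in M82. At 35 DPA neither PsbQ nor PsaD was called (0.53 and 0.60, authors' q-values 0.173 and 0.0797). All 4 were higher in n3122 at 47 DPA, with fold changes between 1.08 and 1.73, and at 54 DPA, between 2.16 and 3.31.

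At 35 DPA the members differed in call more than in sign. Of the 23 members with at least 10 FPKM in M82 at 35 DPA, 16 were called higher at 35 DPA, 23 at 47 DPA and 21 at 54 DPA. Of all tested genes with that level in M82 at 35 DPA, 1.71%, 12.6% and 18.2% were called higher at the 3 ages. Over all 34, the FPKM value was higher in n3122 for 33 at 35 DPA, 32 at 47 DPA and 32 at 54 DPA. For 17 of the 23 abundant members the fold change was larger at 47 than at 35 DPA and larger again at 54 DPA, whereas for Solyc02g070940, Solyc03g005770, Solyc03g005780, CAB5, CAB13 and Solyc05g056050 it was not, or could not be given (CAB5). For 2 of these the order turned with the scale. Solyc05g056050 had 1.21, 1.59 and 1.54 with the pseudocount of 1 FPKM and had its largest fold change at 54 DPA with 0.1 FPKM (3.22). The plain ratio of CAB13, a scale added after the data were seen, was 38.88 at 47 DPA and 44.45 at 54 DPA. The count of 17 became 18 with 0.1 FPKM and 19 with plain ratios. The differences between ages were not tested.

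In the authors' table of n3122 fruit of 60 DPA set against M82 fruit of 47 DPA, the fold changes had both signs. There 26 members were tested, 7 (26.9%) were higher against 7.93% of all 18823 tested genes called higher, and 1 was lower against 7.07% called lower. The median log2 fold change was 0.04 over all 34 and 0.18 over the 26 tested members, beside 0.02 over all tested genes. CAB13 had the largest fold change, with 8.23 FPKM in n3122 against 1.13 FPKM in M82 (log2 fold change 2.12, authors' q-value 0.00424). The CP24 genes Solyc01g105030 and Solyc01g105050 were higher with 1.13 and 1.32. The LHCI genes CAB7 and CAB8 were higher with 0.98 and 1.09 (authors' q-values 0.0112 and 0.0080). PsbQ had 142 FPKM in n3122 against 62.5 FPKM in M82 and PsbP 217 FPKM in n3122 against 119 FPKM in M82, both called higher (authors' q-values 0.000943 and 0.0316).

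The member lower in that table was Solyc03g005770 of the chromosome 3 run, with 2.29 FPKM in n3122 against 8.45 FPKM in M82 (log2 fold change -1.52, authors' q-value 0.0364), and it was not called at a q-value of 0.01, where 4.18% of all tested genes were lower. At an unadjusted p-value under 0.05, 3 members were lower, against 13.2% of all tested genes. Solyc02g071030 and Solyc02g071010 of the chromosome 2 run had fold changes of -1.03 and -1.27 and were not called (authors' q-values 0.103 and 0.0912). That run summed to 24.0 FPKM in n3122 against 39.8 FPKM in M82, a ratio of 0.603, whereas the CP24 pair summed to 90.1 against 38.3 FPKM, a ratio of 2.35. CAB9 and CAB11 were nearly level, with 48.9 FPKM in n3122 against 50.3 FPKM in M82 for CAB9 and 8.59 FPKM in n3122 against 8.40 FPKM in M82 for CAB11, neither called. PsaD and PsbO were not called (0.63 and 0.20, authors' q-values 0.125 and 0.706).

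Levels were lower at later ages in both genotypes; these steps set separately scaled tables side by side with no test. All 34 members were lower in M82 at 47 than at 35 DPA, and 33 were lower in n3122 over the same interval. With the pseudocount of 1 FPKM, the median log2 change over the 34 was -2.47 in M82 and -1.91 in n3122. Over all genes with at least 1 FPKM at both ages it was -0.07 and -0.13. The chlorophyll a/b-binding sum kept 28.0%, 13.8% and 8.24% of its 35 DPA level in n3122 at 47, 54 and 60 DPA, against 10.6% and 1.66% in M82 at 47 and 54 DPA. The photosystem subunit sum kept 40.0%, 28.8% and 22.9% in n3122, against 22.1% and 6.32% in M82. From 54 to 60 DPA, 32 members were lower still in n3122, where the chlorophyll a/b-binding sum at 60 DPA was 0.597 of that at 54 DPA. The median log2 change over the 34 was -0.51 in that step, beside -0.08 over all genes with at least 1 FPKM at both ages.

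**Figure D4:**
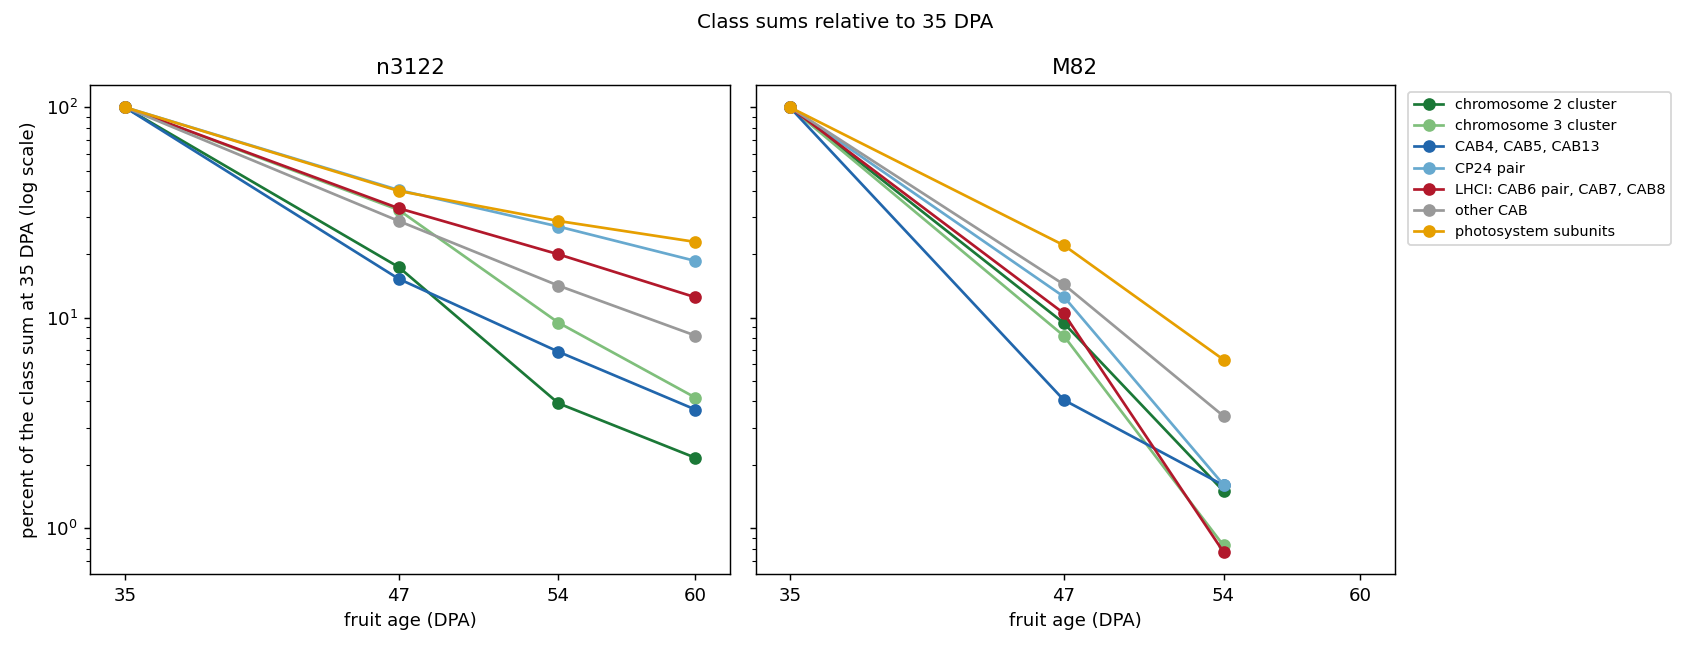
Sum of each class as a percentage of its 35 DPA sum in the same genotype (log axis) against fruit age, n3122 left and M82 right. In n3122 the chromosome 2 run stands at 2.16% at 60 DPA and the photosystem subunits at 22.9%, and in M82 the class of CAB6, CAB7 and CAB8 stands at 0.771% at 54 DPA.

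The make-up of the antenna transcripts differed between ages and genotypes. In n3122 the share of the chromosome 2 run in the chlorophyll a/b-binding sum was 16.7%, 10.4%, 4.74% and 4.38% in order of age, against 12.0%, 10.6% and 10.8% in M82. The LHCI class of CAB6, CAB7 and CAB8 took 29.9%, 35.3%, 43.4% and 45.2% in n3122, against 34.7%, 34.3% and 16.1% in M82. The CP24 pair took 7.27%, 10.5%, 14.3% and 16.4% in n3122, against 8.63%, 10.2% and 8.40% in M82. Within the LHCI class, CAB7 alone took 17.0%, 23.2%, 31.6% and 34.5% in n3122 in order of age, against 20.0%, 25.5% and 8.99% in M82. In n3122 CAB8 took 8.67%, 8.29%, 9.57% and 7.98%. The pair at the place of CAB6A took 4.22%, 3.78%, 2.23% and 2.67% there. The larger share of the class at later ages in n3122 was thus that of CAB7. The M82 shares at 54 DPA rest on a sum of only 60.9 FPKM.

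Other genes of photosynthesis and chlorophyll turnover came from a list of 19, chosen with earlier results of these data known, of which 8 had a reference gene of their name at the same place. All 19 were tested in each table. At 35 DPA, 7 were higher and none lower, where 1.91% and 1.33% of all tested genes were called in those directions. At 47 DPA, 7 were higher and 4 lower, against 13.7% and 9.81% of all tested genes. At 54 DPA, 8 were higher and 4 lower, against 18.1% and 11.5%. With n3122 at 60 DPA, 6 were higher and 2 lower, against 7.93% and 7.07%. The Rubisco small subunit gene rbcS2 (Solyc03g034220) was listed at 3107, 909, 733 and 529 FPKM in n3122 in order of age, against 1720.2, 242 and 20.3 FPKM in M82, and was called higher in all 4 tables. POR2 (Solyc07g054210), a protochlorophyllide oxidoreductase gene of chlorophyll synthesis, was listed at 112, 55.6, 41.1 and 38.6 FPKM in n3122 in order of age, against 76.2, 31.1 and 13.9 FPKM in M82, and was called higher at 47 and 54 DPA. SGR1 (Solyc08g080090), which acts in chlorophyll breakdown, was listed at 128, 241, 258 and 394 FPKM in n3122 in order of age, against 77.7, 885 and 622 FPKM in M82. It was higher at 35 DPA and lower in the other 3 tables (-1.87 at 47 DPA), the opposite of the antenna genes at 47 and 54 DPA.

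GLK1 and GLK2 encode transcription factors that activate antenna genes in green tissue. GLK2 (Solyc10g008160), the one active in tomato fruit, was listed at 18.3, 5.16, 2.52 and 2.16 FPKM in n3122 in order of age, against 9.10, 0.170 and 0.411 FPKM in M82. GLK1 (Solyc07g053630) was listed at 3.65, 1.63, 1.22 and 0.731 FPKM in n3122 in order of age, against 2.87, 0.0496 and 0.0248 FPKM in M82. Neither was called in any table, with log2 fold changes for GLK2 of 0.93, 2.40 and 1.32 at 35, 47 and 54 DPA (authors' q-values 0.0852, 0.289 and 0.0747), and both were under 1 FPKM in M82 past 35 DPA.

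EIN2 (Solyc09g007870), an ethylene signalling gene, was listed at 3.75, 2.50, 2.91 and 1.95 FPKM in n3122 in order of age, against 48.9, 35.0 and 40.8 FPKM in M82, and was called lower in all 4 tables. A list of 6 ripening genes summed to 236, 473, 730.3 and 3243 FPKM in n3122 in order of age, against 378, 19160.2 and 11558 FPKM in M82. The antenna sum was lowest in M82 at 54 DPA, the group with the second highest ripening sum. Of the 6 genes, RIN (Solyc05g012020) alone was highest in that group, with 977 FPKM against 733 FPKM in M82 at 47 DPA. How the antenna and ripening sums relate was not tested. Of these 6, 1 was lower at 35 DPA, where 1.33% of all tested genes were lower. All 6 were lower at 47 DPA, at 54 DPA and in the table of n3122 at 60 DPA, where 9.81%, 11.5% and 7.07% of all tested genes were. The cuticle and epidermis list of 6 genes, which marks another cell layer of the pericarp, summed to 778, 193, 177 and 204 FPKM in n3122, against 540.3, 129 and 149.8 FPKM in M82. None of the 6 was called at 35 DPA, 1 was higher at 47 DPA, 2 were higher at 54 DPA and 2 with n3122 at 60 DPA, and none was lower in these tables. Over all tested genes, 1.91%, 13.7%, 18.1% and 7.93% were called higher in that order, and counts among 6 genes are too small to set apart from these shares. The median log2 fold changes of the 6 cuticle and epidermis genes were 0.29, 1.17, 1.26 and 0.83 in the same order. Single epidermis markers had differences as wide as those of antenna genes, while others did not. At 47 DPA Solyc02g088190 had a log2 fold change of -0.53 and CD2 of 0.27, neither called. CD1 (Solyc11g006250), a cutin synthase gene, was listed at 447, 42.0, 18.1 and 5.67 FPKM in n3122 in order of age, against 289, 0.484 and 0.448 FPKM in M82, and was called higher in n3122 in 3 tables, with a log2 fold change of 4.86 at 47 DPA (authors' q-value 0.00178). Solyc08g081220 was listed at 127, 16.1, 5.33 and 1.24 FPKM in n3122 in order of age, against 103, 0.0503 and 0.0676 FPKM in M82, and was not called in any table. CER6, a wax synthesis gene, was listed at 143, 89.1, 93.6 and 136 FPKM in n3122 in order of age, against 98.5, 89.7 and 114 FPKM in M82. It was nearly level at 47 DPA (-0.01) and had -0.29 at 54 DPA, not called at either age. SHN3 was listed at 0 in M82 at 47 DPA. The part of either list in the antenna differences was not tested. FPKM totals per group ran from 1323308 to 1363216 in the 4 n3122 groups and from 1320705 to 1456313 in the 3 M82 groups.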

How the data were processed

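Per the submitters' processing notes, the tools were CASAVA, Cufflinks and TopHat2 2.0; the genome build and annotation were not given in the sources at hand, and the depth is unknown. Per the file headers, the authors deposited 4 tables, each with 1 FPKM value per gene for an n3122 and an M82 group, a test statistic (score), a p-value and its q-value. Genes with a deposited score of 0 were taken as not tested. The sign of the score was opposite to the FPKM difference in the table of n3122 at 60 DPA, so directions came from the FPKM columns. The q-values in the deposited tables matched a Benjamini-Hochberg adjustment over tested genes to within 5.26e-07. M82 at 47 DPA stands in both of its tables at a ratio of 0.960 (SD 0.00118 over 17236 genes), so tables were taken as scaled separately.

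Fold changes, sums and counts were computed with Python 3.11.15 and pandas 2.3.3; the counting was tested on simulated data. No model was fitted, since no values per library were given. A name was accepted where the reference gene's relative rank lay within 5% of the chromosome's genes; CAB13 was given to Solyc12g011450, the nearer of a pair of candidates. Members and lists were chosen with earlier results of these data known. Values in all 7 groups are written out for the photosystem subunits, the most abundant member of each run or pair, each member standing alone, members lower in any table, members not called at 54 DPA, and those with the largest or smallest fold change. A promoter motif search planned at the outset was not run. Alternatives were a q-value of 0.01, a minimum log2 fold change of 1, a minimum of 1 FPKM, the unadjusted p-value, a pseudocount of 0.1 FPKM, a median ratio set to 0, and sums without CAB7 or without untested members.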

Additional observations from a re-analysis of the deposited data

How the results depend on the processing

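Of 49 settings tried on counts of called members and on sums, 46 stayed within 1.5 times the reported value. Some of the 46 could not move, since a count of 0 lower members stays at 0 under a stricter rule. Requiring a log2 fold change of 1 or more took the members higher at 35 DPA to 13, against 20 as reported. The 1 member lower in n3122 at 60 DPA became 0 at a q-value of 0.01 and 3 at an unadjusted p-value under 0.05. The ratio of chlorophyll a/b-binding sums at 54 DPA was 11.3 without CAB7, against 15.1 with it. With a pseudocount of 0.1 FPKM, 15 of 97 fold changes of named members, taken before the log2 step, moved by over 1.5 times. Of these, 10 were in members the authors called, and the median over members at 54 DPA moved as well. Setting the median ratio of all genes to 0 moved none of the 97 that far. A pseudocount cannot turn the sign of a fold change, so the sign was no check of that setting. Leaving out a replicate was not run, and no paired analysis was possible because the files hold 1 value per group and none per library. Fold changes of members under about 1 FPKM are the least certain.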
